A study of Mus musculus with 15 samples.

Results

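The glucocorticoid receptor gene Nr3c1 and 8 genes that are known to respond to glucocorticoids, Fkbp5, Tsc22d3, Zbtb16, Sgk1, Klf9, Klf15, Mt1 and Mt2, were followed in mouse hearts with chronic kidney disease (CKD). They were chosen by name, with earlier results of these data known, and all 9 were among the 17447 genes of the count table. RNA-seq was performed on hearts of 15 male C57BL/6J mice in 5 groups of 3, collected 18 weeks after surgery in mice that were 6 to 8 weeks old at the start. WTSHAM mice were wild type and had a sham operation, and the labels name no vector for them. WTCKD mice were wild type with a 5/6 nephrectomy made in a pair of operations and received a control vector by tail vein in week 2. What that vector carried was not given in the sources used here. WTCKD + RNLS mice were the same except that they received AAV9-cTnT-RNLS, a virus carrying renalase under the cardiac troponin T promoter, which drives it in cardiomyocytes. KOCKD and KOCKD + RNLS mice carried a renalase knockout made by TALENs against exon 4 of Rnls, had the same nephrectomy, and received the control vector or the virus. All groups except WTSHAM thus shared the nephrectomy and an injection, and a knockout without nephrectomy was not analysed here. Rnls itself was not analysed here either, so the genotype labels were not checked against it.

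Glucocorticoids such as corticosterone enter cells and bind the receptor encoded by Nr3c1, which is held ready in the cytoplasm by heat shock proteins and immunophilins. The bound receptor moves to the nucleus, binds glucocorticoid response elements and raises or lowers nearby genes. Fkbp5, Tsc22d3 and Zbtb16 are among the targets most used to follow receptor activity, and FKBP51, the product of Fkbp5, in turn lowers the receptor's affinity for hormone. Tsc22d3 encodes GILZ, an anti-inflammatory protein, and Zbtb16 encodes the zinc finger repressor PLZF. Sgk1 encodes a kinase that regulates ion channels and is also induced by aldosterone and by cell stress. Klf9 and Klf15 are Kruppel-like transcription factors, and KLF15 controls amino acid and lipid metabolism in the heart and the diurnal course of a cardiac potassium current. Mt1 and Mt2 encode metallothioneins, small metal-binding proteins that zinc and oxidative stress also induce. Corticosterone follows a daily rhythm in the mouse, so the same genes also vary with the time of day.

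The promoters of the genes whose levels or motifs are discussed most are shown first, since they carry the letters a reader would look for. Of the 9 genes, 7 had windows in the RefSeq promoter table, 14 windows in all, and Nr3c1 and Zbtb16 did not. Each window held 250 bases before and 50 after a start site, and the 250 bases before it are printed 5′ to 3′ in the direction of transcription (GRCm38.p6). Capitals mark matches, on either strand, to the glucocorticoid response element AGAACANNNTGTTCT, its looser form GNACANNNTGTNC, the metal response element (TGCACNC or TGCGCNC), the E-box CACGTG bound by the clock proteins, or the cyclic AMP element TGACGTCA. The looser form was added after the sequences had been seen, and it overlaps the exact one. The windows lie at chr10:21993640-21993889 (plus strand, the fifth of 6 Sgk1 start sites), chr8:94178839-94179088 (plus strand, Mt1), chr8:94172368-94172617 (plus strand, Mt2) and chr6:90462326-90462575 (plus strand, Klf15).
Sgk1: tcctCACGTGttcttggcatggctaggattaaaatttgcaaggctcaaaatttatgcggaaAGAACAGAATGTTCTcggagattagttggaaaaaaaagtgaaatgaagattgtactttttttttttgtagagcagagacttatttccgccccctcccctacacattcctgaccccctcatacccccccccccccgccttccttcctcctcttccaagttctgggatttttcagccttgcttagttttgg
Mt1: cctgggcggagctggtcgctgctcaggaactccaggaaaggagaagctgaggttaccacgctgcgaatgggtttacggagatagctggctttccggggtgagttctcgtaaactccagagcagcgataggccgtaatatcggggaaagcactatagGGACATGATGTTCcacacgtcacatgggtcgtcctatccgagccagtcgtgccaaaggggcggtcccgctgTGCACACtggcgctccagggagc
Mt2: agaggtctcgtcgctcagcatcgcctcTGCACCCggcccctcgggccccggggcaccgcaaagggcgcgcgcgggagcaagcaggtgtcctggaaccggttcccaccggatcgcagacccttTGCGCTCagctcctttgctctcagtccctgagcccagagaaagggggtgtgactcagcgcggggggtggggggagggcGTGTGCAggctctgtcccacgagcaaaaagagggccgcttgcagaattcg
Klf15: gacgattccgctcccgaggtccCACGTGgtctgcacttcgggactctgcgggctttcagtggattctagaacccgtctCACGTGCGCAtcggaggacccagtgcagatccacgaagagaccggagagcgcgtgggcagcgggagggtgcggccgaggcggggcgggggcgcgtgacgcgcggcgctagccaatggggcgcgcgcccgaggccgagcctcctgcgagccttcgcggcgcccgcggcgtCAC

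The Sgk1 window held the exact element, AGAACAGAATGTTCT, starting 189 bases before the start site (position -189), and an E-box at -246. The exact element was found in 3 of 32851 windows of all genes (0.00913%), and the looser form in 0.475%. Mt1 held a looser form, GGACATGATGTTC, at -94. Neither form was found in any window of Fkbp5, Tsc22d3, Klf9, Klf15 or Mt2, or in the other Sgk1 windows. Mt1 and Mt2 held 3 and 4 metal response elements in the whole window, some of them after the start site and not printed, and 25.7% of all windows held at least 1. Klf15 held 3 E-boxes, at -228, -172 and -3, the last cut by the end of the printed stretch, and the one at -172 overlaps a metal response element. An E-box was present in 7.15% of all windows, and also once in the Fkbp5 window, at -169. The hexamer AGAACA alone was present in 19.0% of windows and is not marked by capitals. The cyclic AMP element was in 1.79% of windows and in none of those of the 9 genes. A match describes these letters only, and no binding was measured.

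Between 10480788 and 13424078 reads were counted per library (median 12011453), and all 9 genes passed the filter on low counts, which left 13021 genes for the tests. On the FPKM scale, which divides by gene length and so allows genes to be compared, Mt1 had the highest median over the 15 libraries (83.6) and Fkbp5 the lowest (5.21). Klf9 (39.8), Tsc22d3 (24.0), Mt2 (23.0), Sgk1 (22.4), Zbtb16 (12.3), Nr3c1 (10.7) and Klf15 (9.60) lay between them. Tsc22d3, Mt2 and Sgk1 were closer to each other than the spread of any of them over the libraries, and so were Zbtb16, Nr3c1 and Klf15. The range over libraries was narrow for Nr3c1, 9.26 to 13.5 FPKM, and wide for Mt2, 11.1 to 94.8 FPKM. All following levels are CPM, counts scaled to the library's size with TMM factors, which compare libraries and not genes. The hearts were bulk tissue, so fewer cells of a type and less RNA per cell cannot be told apart.

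**Figure D1:**
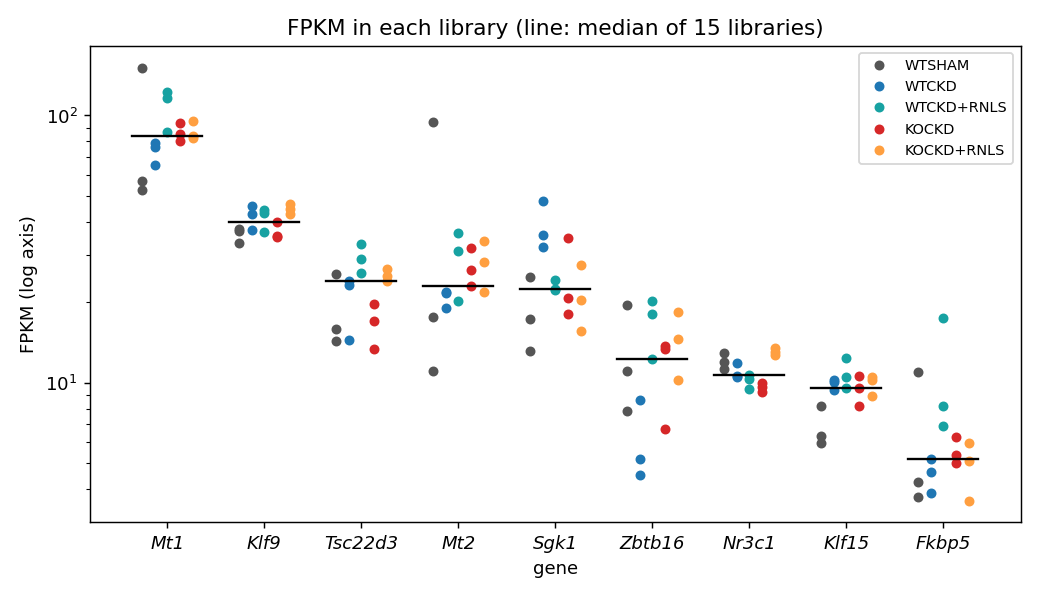
FPKM of the 9 genes (vertical axis, log scale) in each of the 15 libraries, coloured by group, with genes ordered by their median (black line). Mt1 had the highest median, 83.6, and Fkbp5 the lowest, 5.21, while the single highest Mt2 value, 94.8, was a WTSHAM library.

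The receptor gene differed with the virus in knockout hearts and hardly varied within groups. Nr3c1 (ENSMUSG00000024431, mm9 chr18:39570199-39650955, minus strand) was at 100.4, 99.5 and 109 CPM in WTSHAM and at 91.0, 99.9 and 94.5 CPM in WTCKD. It was at 92.5, 89.4 and 96.2 CPM in WTCKD + RNLS. In the knockouts it was at 83.8, 82.6 and 86.1 CPM in KOCKD and at 114, 118 and 109.99 CPM in KOCKD + RNLS. The 3 KOCKD + RNLS libraries were the highest of all 15 and the 3 KOCKD libraries the lowest, while the other groups overlapped in pairs except WTSHAM and WTCKD + RNLS. In KOCKD + RNLS against KOCKD the log2 fold change was 0.43 (SE 0.0689, edgeR adjusted p = 0.00204), and this call held when any 1 of the 6 libraries was left out. In wild-type hearts the same contrast was -0.04 (95% interval -0.18 to 0.11, adjusted p = 0.822). The difference between these effects was 0.47 (interval 0.26 to 0.68), which did not pass in edgeR (unadjusted p = 0.000183, adjusted p = 0.105) and passed in DESeq2 (adjusted p = 0.00204). WTCKD against WTSHAM gave -0.12 (adjusted p = 0.41), and KOCKD against WTCKD gave -0.18 with no overlap of the groups (adjusted p = 0.461). The within-group SD of Nr3c1 on the log2 scale, 0.057, was smaller than that of all but 1.0% of tested genes, and 90.7% of its variance lay between groups against a median of 49.3% over all tested genes.

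Zbtb16 (ENSMUSG00000066687, mm9 chr9:48462416-48644050, minus strand) was lowest in WTCKD and higher with the virus in wild-type hearts. It was at 163, 86.2 and 62.2 CPM in WTSHAM and at 70.2, 35.7 and 43.3 CPM in WTCKD. In WTCKD + RNLS it was at 169, 109 and 153 CPM, above every WTCKD library. KOCKD libraries were at 54.9, 112 and 111 CPM and KOCKD + RNLS libraries at 119.6, 149.9 and 83.6 CPM, which overlapped. WTCKD + RNLS against WTCKD gave a log2 fold change of 1.53 (SE 0.352, adjusted p = 0.0211). The call was lost without WTCKD replicate 2 (log2 fold change 1.34, adjusted p = 0.1), without WTCKD replicate 3 (0.0646) and without WTCKD + RNLS replicate 1 (0.0772) or replicate 3 (0.0642). In knockout hearts the contrast was 0.35 (interval -0.38 to 1.07, adjusted p = 0.518), and the difference between genotypes, -1.18, did not pass (unadjusted p = 0.0279, adjusted p = 0.23). WTCKD against WTSHAM gave -1.06 with overlapping groups (unadjusted p = 0.00803, adjusted p = 0.124), and -0.57 without WTSHAM replicate 1 (adjusted p = 0.347). KOCKD against WTCKD gave 0.89 (unadjusted p = 0.0214, adjusted p = 0.461).

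Fkbp5 (ENSMUSG00000024222, mm9 chr17:28536040-28654469, minus strand) was set apart by single libraries. In WTCKD + RNLS it was at 69.1, 29.1 and 32.8 CPM, and in WTCKD at 14.96, 19.5 and 18.5 CPM, so the groups did not overlap. WTSHAM libraries were at 43.4, 15.7 and 14.0 CPM, with replicate 1 above every library except WTCKD + RNLS replicate 1. KOCKD libraries were at 20.7, 24.8 and 19.1 CPM and KOCKD + RNLS libraries at 19.8, 23.0 and 14.0 CPM. The wild-type contrast with the virus was 1.31 (SE 0.376, adjusted p = 0.0599), just short of the threshold. It passed when only the 6 libraries compared were fitted (adjusted p = 0.0384), without a filter on low counts (0.0279) and without WTCKD + RNLS replicate 2 (0.0346). Without WTCKD + RNLS replicate 1 the value was 0.81 (adjusted p = 0.252), and without any of the other 4 libraries the adjusted p was 0.0706 to 0.188. In knockout hearts the contrast was -0.18 (interval -0.99 to 0.63, adjusted p = 0.78). The difference between genotypes was -1.49 (interval -2.62 to -0.36, unadjusted p = 0.0132, adjusted p = 0.189) and did not pass. WTCKD against WTSHAM gave -0.46 (adjusted p = 0.58), which became 0.25 without WTSHAM replicate 1 (adjusted p = 0.715).

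Tsc22d3 (ENSMUSG00000031431, mm9 chrX:137074067-137135198, minus strand) was higher in the virus libraries than in the vector libraries of each genotype, and passed the test when the genotypes were averaged. It was at 119, 112 and 137 CPM in WTCKD + RNLS against 95.9, 90.3 and 59.5 CPM in WTCKD. It was at 108, 100.7 and 95.7 CPM in KOCKD + RNLS against 53.6, 81.3 and 67.8 CPM in KOCKD. In both genotypes every virus library was above every vector library. The log2 fold changes were 0.59 in wild-type hearts (SE 0.213, adjusted p = 0.132) and 0.59 in knockout hearts (SE 0.215, adjusted p = 0.0728), and neither passed alone. Without WTCKD replicate 3 the wild-type value was 0.40 (adjusted p = 0.327). Averaged over genotypes the fold change was 0.59 (SE 0.151, adjusted p = 0.0143), and this call held without any 1 of the 12 libraries. The knockout contrast alone passed in DESeq2 (adjusted p = 0.035), without a filter on low counts (0.0498) and with only the 6 libraries compared (0.00691). The difference between genotypes was -0.00098 with an interval of -0.65 to 0.65 (adjusted p = 0.999), which does not show that the effects were equal. WTSHAM libraries were at 105, 54.96 and 61.7 CPM, and WTCKD against WTSHAM gave 0.15 (adjusted p = 0.772). WTCKD + RNLS against WTSHAM gave 0.74 (adjusted p = 0.0449), a call lost without WTSHAM replicate 2 (adjusted p = 0.186) or 3 (0.16), without any WTCKD + RNLS library (0.0742 to 0.107) and with only the 6 libraries compared (0.122).

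Sgk1 (ENSMUSG00000019970, mm9 chr10:21601990-21719709, plus strand) was the member with the largest rise in WTCKD against WTSHAM. Not every Sgk1 window held the exact response element. Which start site was in use was not measured, and the part of the element in this rise was not tested. It was at 133, 191 and 152 CPM in WTCKD against 105, 52.0 and 69.2 CPM in WTSHAM. WTCKD + RNLS libraries were at 94.9, 109 and 95.1 CPM, below every WTCKD library. KOCKD libraries were at 85.5, 147 and 74.2 CPM and KOCKD + RNLS libraries at 114, 84.4 and 64.6 CPM. WTCKD was the highest group and overlapped only with KOCKD, through KOCKD replicate 2. The log2 fold change in WTCKD against WTSHAM was 1.07 (SE 0.267, adjusted p = 0.0469). Leaving out WTSHAM replicate 1 gave 1.39 (adjusted p = 0.0107). Leaving out any other of the 6 kept the value between 0.86 and 1.19 but lost the call (adjusted p from 0.0751 to 0.156), and fitting only those 6 gave an adjusted p of 0.0838. With the virus Sgk1 differed by -0.67 in wild-type hearts (SE 0.265, adjusted p = 0.166, and 0.027 with only the 6 libraries) and by -0.22 in knockout hearts (adjusted p = 0.607). KOCKD against WTCKD gave -0.63 (unadjusted p = 0.0295, adjusted p = 0.472). In the wild-type contrast with the virus, Sgk1 was the member with the most negative value and Zbtb16 the one with the most positive.

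Klf15 (ENSMUSG00000030087, mm9 chr6:90412570-90425232, plus strand) was lower in WTSHAM than in nearly every CKD library. It was at 64.1, 43.5 and 46.9 CPM in WTSHAM and at 76.5, 69.2 and 79.9 CPM in WTCKD, with no overlap. It was at 82.0, 79.5 and 97.6 CPM in WTCKD + RNLS, at 62.3, 82.8 and 72.3 CPM in KOCKD and at 78.7, 68.2 and 80.0 CPM in KOCKD + RNLS. The means were 75.2 ± 5.44 in WTCKD, 72.5 ± 10.3 in KOCKD and 75.6 ± 6.45 CPM in KOCKD + RNLS (SD, n = 3), closer than their spread, and only KOCKD replicate 1 was below a WTSHAM library. WTCKD against WTSHAM gave 0.55 (SE 0.138, adjusted p = 0.0491), a call that sat at the threshold. Without WTSHAM replicate 1 it was 0.74 (adjusted p = 0.00471), and without any other of the 6 libraries the adjusted p was 0.0708 to 0.164. It was 0.11 with only those 6 libraries fitted. WTCKD + RNLS against WTSHAM gave 0.75 (SE 0.138, adjusted p = 0.00386), and this call held without any 1 of its 6 libraries. The virus contrasts were 0.20 in wild-type (adjusted p = 0.452) and 0.06 in knockout hearts (adjusted p = 0.794).

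Klf9 (ENSMUSG00000033863, mm9 chr19:23215716-23241401, plus strand) varied little, with a within-group SD on the log2 scale of 0.101. It was at 172, 157 and 144 CPM in WTSHAM, at 189, 198 and 171 CPM in WTCKD and at 197, 177 and 205 CPM in WTCKD + RNLS. In the knockouts it was at 158, 161 and 175 CPM in KOCKD and at 200.1, 208 and 189 CPM in KOCKD + RNLS, which did not overlap. KOCKD + RNLS against KOCKD gave 0.27 (SE 0.0872, adjusted p = 0.0426). The call was lost without KOCKD replicate 1 (adjusted p = 0.12) or 2 (0.119) and without any KOCKD + RNLS library (0.0591 to 0.134). The wild-type contrast was 0.05 (interval -0.13 to 0.24, adjusted p = 0.802), and the difference between genotypes was 0.22 (adjusted p = 0.358). WTCKD against WTSHAM gave 0.24 (unadjusted p = 0.0144, adjusted p = 0.163), and WTCKD + RNLS against WTSHAM gave 0.29 without overlap (adjusted p = 0.0522).

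The metallothionein contrasts with WTSHAM depended on 1 library. Mt1 (ENSMUSG00000031765, mm9 chr8:96702989-96704225, plus strand) was at 161, 56.7 and 53.1 CPM in WTSHAM and at 81.4, 65.4 and 81.2 CPM in WTCKD. It was at 123, 138 and 93.1 CPM in WTCKD + RNLS, all above WTCKD. It was at 83.3, 100.2 and 87.7 CPM in KOCKD and at 99.4, 86.8 and 85.0 CPM in KOCKD + RNLS. Mt2 (ENSMUSG00000031762, mm9 chr8:96696518-96697467, plus strand) was at 53.7, 9.32 and 5.96 CPM in WTSHAM, where replicate 1 was the highest and replicate 3 the lowest of all 15 libraries. It was at 12.1, 10.2 and 12.3 CPM in WTCKD, at 17.6, 21.8 and 11.6 CPM in WTCKD + RNLS, at 17.6, 13.04 and 14.5 CPM in KOCKD and at 18.8, 15.6 and 11.99 CPM in KOCKD + RNLS. The closest approach to a call was Mt1 in WTCKD + RNLS against WTCKD, with 0.64 (SE 0.299, unadjusted p = 0.0495, adjusted p = 0.246, and 0.0498 with only the 6 libraries). The same contrast for Mt2 was 0.55 (adjusted p = 0.64), and in knockout hearts the contrasts were 0.0002 for Mt1 and 0.04 for Mt2. Every KOCKD library was above every WTCKD library for both genes, with 0.25 for Mt1 (adjusted p = 0.772) and 0.38 for Mt2 (adjusted p = 0.818). WTCKD against WTSHAM gave -0.24 for Mt1 (adjusted p = 0.733) and -0.98 for Mt2 (adjusted p = 0.377). Without WTSHAM replicate 1 these turned to 0.47 (adjusted p = 0.0976) and 0.60 (adjusted p = 0.236).

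Relative to WTSHAM, the WTCKD + RNLS contrast also turned on that library. It was 0.39 for Mt1 (adjusted p = 0.449) and -0.43 for Mt2 (adjusted p = 0.667), and without WTSHAM replicate 1 it was 1.11 (adjusted p = 0.000237) and 1.15 (adjusted p = 0.011). The ratio of Mt1 to Mt2 CPM was 2.995 in WTSHAM replicate 1 and 4.74 to 8.90 in the other 14 libraries. The genes are similar copies that lie close together on chromosome 8, and how the counting treated reads shared between them was not given in the sources used here. They moved together over the 15 libraries (Pearson r = 0.888, and 0.948 for deviations from the group means), which share these libraries and their depth.

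**Figure D2:**
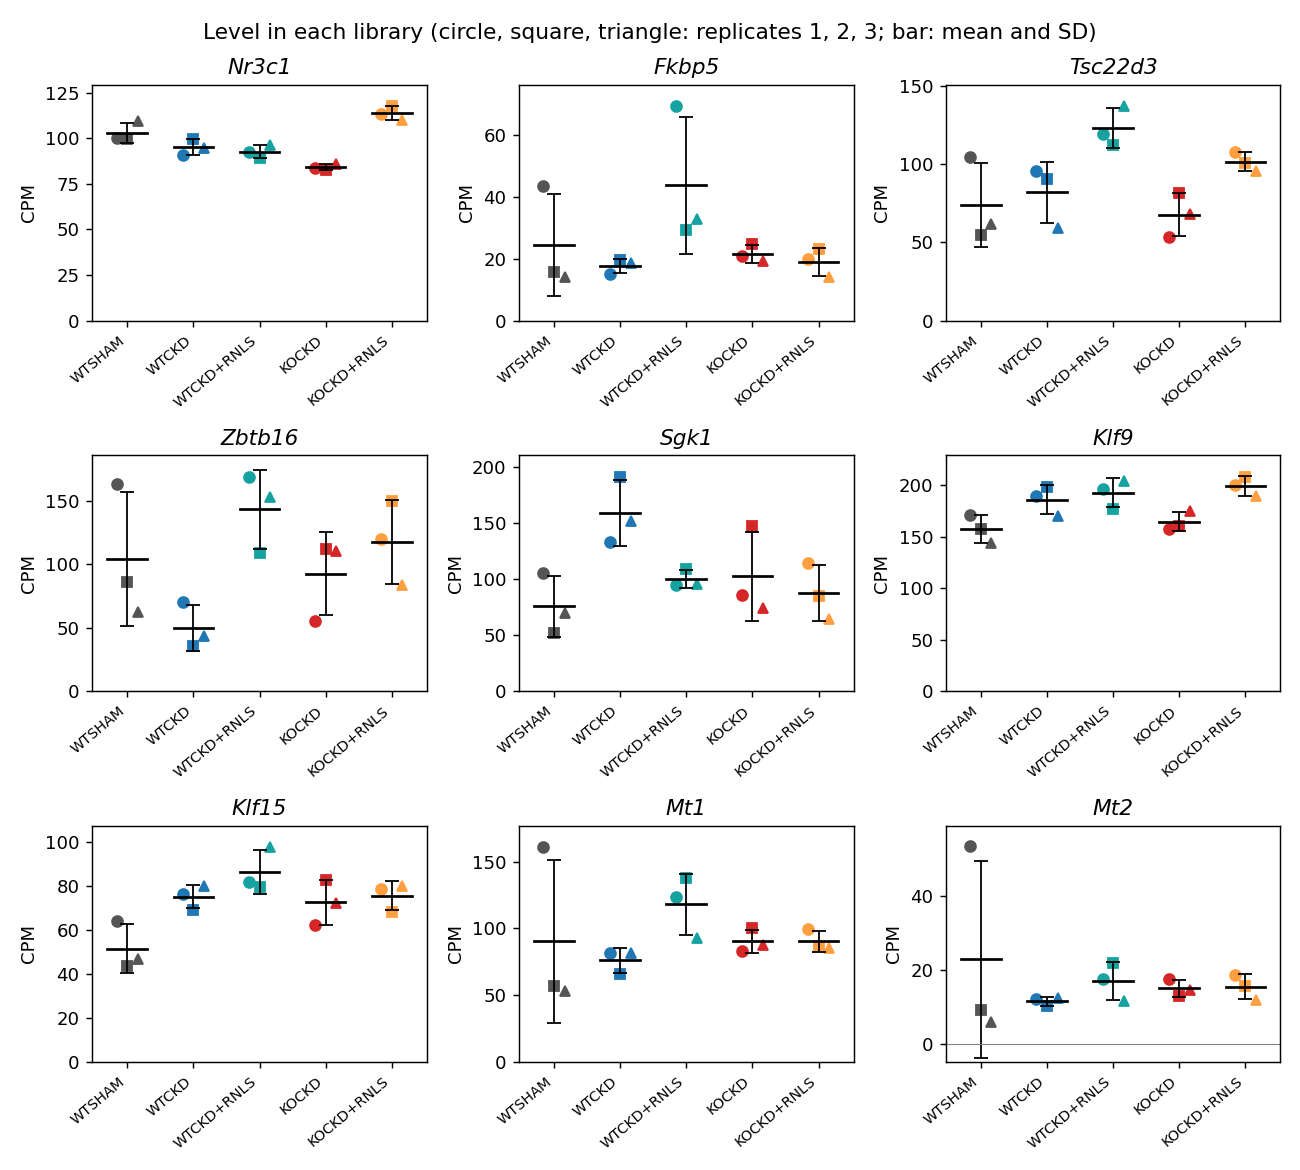
CPM (vertical axis, 1 panel per gene) in each library of the 5 groups (horizontal axis), with circles, squares and triangles for replicates 1, 2 and 3 and black bars for the mean and SD of 3. KOCKD + RNLS stands above all other libraries for Nr3c1, WTCKD above WTSHAM for Sgk1 and Klf15, and WTSHAM replicate 1 far above its group for Fkbp5, Mt1 and Mt2.

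As labelled, WTCKD differed from WTSHAM by the nephrectomy and also by the vector injection, and their parts cannot be told apart. In WTCKD against WTSHAM, 2 of the 9 genes passed an adjusted p of 0.05, Sgk1 and Klf15, both higher. Over all tested genes 2.30% passed. The study's threshold was a rise of over 25%, or the fall that mirrors it, with an unadjusted p under 0.05. Here and below it was applied to the edgeR fold changes and p-values, whereas the study used DESeq, so these are not the study's own calls. By this threshold 3 of 9 passed (Sgk1 and Klf15 higher, Zbtb16 lower) against 11.3% of all genes. The median log2 fold change of the 9 was -0.12 against -0.01 over all genes, and 4 of 9 were above 0. Without WTSHAM replicate 1 the median was 0.47, and 2 passed where 2.88% of all genes did. Without any other of the 6 libraries 0 of 9 passed, and 1.03% to 1.78% of all genes.

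In WTCKD + RNLS against WTCKD, which as labelled compared the virus with the vector, 1 of 9 passed, Zbtb16, higher. Over all genes 4.47% passed. Clock genes, given below, also differed between virus and vector libraries in both genotypes, and the hour of collection was not given. The deposited column names carried other prefixes as well. The parts of these in the virus contrasts were not tested. By the study's threshold 5 of 9 passed, with Fkbp5, Tsc22d3, Zbtb16 and Mt1 higher and Sgk1 lower, against 14.4% of all genes. The groups of those 5 did not overlap, which rests on the same values, and the share of all genes without overlap was not counted. The median of the 9 was 0.55 against 0.01 over all genes, and 7 of 9 were above 0. With only the 6 libraries compared, 4 of 9 passed, where 3.03% of all genes did in that fit. This contrast and the preceding one share the WTCKD libraries, so a gene that was low in these libraries takes opposite signs in them, and the values are given side by side only: -1.06 and 1.53 for Zbtb16, 1.07 and -0.67 for Sgk1, -0.46 and 1.31 for Fkbp5.

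In KOCKD + RNLS against KOCKD, 2 of 9 passed, Nr3c1 and Klf9, both higher, where 16.1% of all genes did. By the study's threshold 2 of 9 passed, Nr3c1 and Tsc22d3, against 22.3% of all genes, since the change of Klf9 was under that size. The median of the 9 was 0.06 against -0.01 over all genes. Averaged over both genotypes, 3 of 9 passed, all higher with the virus, where 18.0% of all genes did. These were Nr3c1 (0.20, adjusted p = 0.011), Tsc22d3 (0.59, adjusted p = 0.0143) and Zbtb16 (0.94, adjusted p = 0.0152). By the study's threshold 3 of 9 passed, Tsc22d3 and Zbtb16 higher and Sgk1 lower, against 16.7% of all genes. The shares for knockout hearts are thus near those of all genes.

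In KOCKD against WTCKD, which as labelled compared the knockout with the wild type in CKD, 0 of 9 passed in edgeR. The same held for 0 of all 13021 genes (0%), while 1318 genes had an unadjusted p under 0.05 and DESeq2 called 10. Among the 9, 3 had an unadjusted p under 0.05 (Nr3c1, Zbtb16 and Sgk1), and 2 passed the study's threshold, Zbtb16 higher and Sgk1 lower, against 5.62% of all genes. DESeq2 called 0 of the 9. For the difference of the virus effect between genotypes, 0 of 9 and 0 of all genes (0%) passed in edgeR, 2288 genes had an unadjusted p under 0.05 and DESeq2 called 374, with Nr3c1 as the only one of the 9. By the study's threshold 3 of 9 passed, Nr3c1 higher and Fkbp5 and Zbtb16 lower, against 15.2% of all genes. In WTCKD + RNLS against WTSHAM, 2 of 9 passed, Tsc22d3 and Klf15, both higher, where 7.69% of all genes did, and without WTSHAM replicate 1 the count was 6, where 11.3% of all genes passed. By the study's threshold 3 of 9 passed, with Fkbp5 added, against 16.0% of all genes.

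Over all 5 groups, 6 of 9 differed by the quasi-likelihood F test, where 22.2% of all genes did. These were Nr3c1 (adjusted p = 0.00378), Klf15 (0.013), Klf9 (0.0316), Tsc22d3 (0.0323), Zbtb16 (0.0421) and Sgk1 (0.0457). Fkbp5 (0.0575), Mt1 (0.458) and Mt2 (0.597) did not pass. The count moved with single libraries. It was 9 without WTSHAM replicate 1, where 25.8% of all genes passed. It was 2 without WTSHAM replicate 2 (15.9% of all genes) or KOCKD + RNLS replicate 2 (13.2%). It was 3 without WTCKD + RNLS replicate 1 or 3, KOCKD replicate 1 or KOCKD + RNLS replicate 1, where 14.8% to 20.1% of all genes passed.

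**Figure D3:**
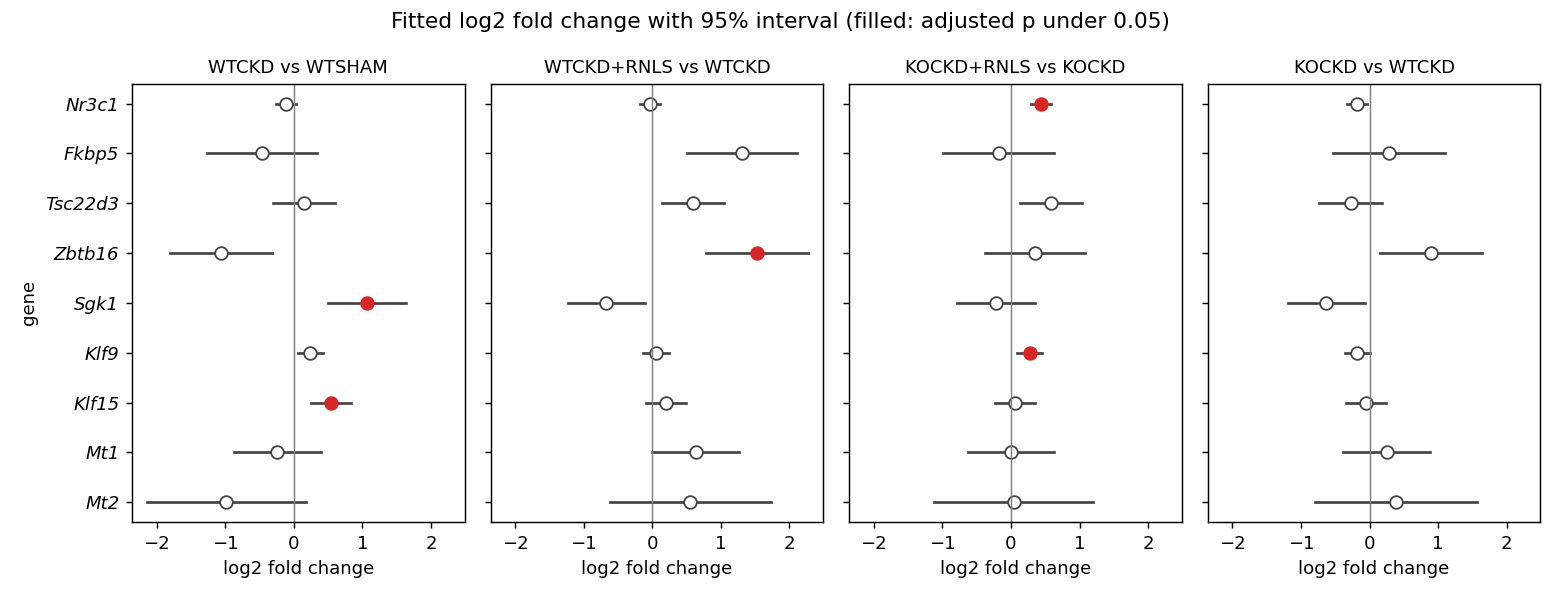
Fitted log2 fold changes (horizontal axis) of the 9 genes in 4 contrasts, with 95% intervals as lines and filled points for an adjusted p under 0.05. Filled points are Sgk1 and Klf15 in WTCKD vs WTSHAM, Zbtb16 in WTCKD+RNLS vs WTCKD, Nr3c1 and Klf9 in KOCKD+RNLS vs KOCKD, and none in KOCKD vs WTCKD.

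The other genes of the pathway were taken from written lists. Their counts are to be read beside the share of all genes that passed in either direction. That share was 2.30% in WTCKD against WTSHAM, 4.47% in WTCKD + RNLS against WTCKD and 16.1% in KOCKD + RNLS against KOCKD. Of the 14 chaperones and immunophilins that hold the receptor, 0 passed in WTCKD against WTSHAM and in WTCKD + RNLS against WTCKD. With the virus in knockout hearts 3 of 14 were lower and 0 higher, where 16.1% of all genes passed. The list median was -0.21 against -0.01 over all genes. These were Ptges3, the co-chaperone p23 (77.3 ± 3.11 to 56.5 ± 4.02 CPM, SD, n = 3, log2 fold change -0.45, adjusted p = 0.0152), the chaperone Hspa8 (-0.48, adjusted p = 0.0436) and Fkbp4, the immunophilin FKBP52 (-0.29, adjusted p = 0.0494). Among the 17 receptor coregulators, 8 were higher and 0 lower in the same contrast, with a list median of 0.40. Ep300, a histone acetyltransferase, rose from 44.6 ± 1.97 to 82.4 ± 2.24 CPM (0.88, adjusted p = 0.000823). The coactivators Ncoa2 (0.56, adjusted p = 0.00284) and Ncoa3 (0.59, adjusted p = 0.00326) and the corepressor Ncor1 (0.41, adjusted p = 0.00529) rose as well. In WTCKD + RNLS against WTCKD 0 of the 17 passed (list median 0.09), and the difference between genotypes called 0 of them (list median 0.21). In knockout hearts 8 of the 17 thus passed in the direction of the receptor gene, and 2 of the 17 were below 0, in a contrast where 16.1% of all genes passed.

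Among 11 genes of steroid access, which hold the enzymes that activate or inactivate corticosterone, the mineralocorticoid receptor and steroid pumps, 6 were tested. In WTCKD against WTSHAM and in WTCKD + RNLS against WTCKD 0 of them passed, and in KOCKD + RNLS against KOCKD the pump gene Abcb1a was higher (0.55, adjusted p = 0.0164). Of 40 further glucocorticoid-induced genes 38 were tested. In WTCKD against WTSHAM 4 were higher and 1 lower, where 2.30% of all genes passed, with a list median of 0.31. The inhibitor of NF-kB Nfkbia rose from 33.5 ± 3.11 to 69.8 ± 13.8 CPM (1.06, adjusted p = 0.00544), and Cited2 (0.59, adjusted p = 0.0149) and Txnip (0.99, adjusted p = 0.0258), which encode a CBP-binding coregulator and the thioredoxin inhibitor, were higher. Pik3r1, a regulatory subunit of PI3 kinase, fell from 157 ± 30.8 to 91.0 ± 3.10 CPM (-0.79, adjusted p = 0.00608).

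With the virus the same list moved in both directions. In WTCKD + RNLS against WTCKD 5 of 38 were higher and 6 lower (list median -0.16), where 4.47% of all genes passed. Pdk4, which blocks glucose oxidation and is also a target of fatty acid receptors, fell from 872 ± 428 to 85.3 ± 14.6 CPM (-3.35, adjusted p = 0.00041). Angptl4, another fatty acid target, fell from 18.5 ± 14.8 to 0.652 ± 0.348 CPM (-4.83, adjusted p = 0.00295), and Txnip fell by 1.27 on the log2 scale (adjusted p = 0.00518). Pik3r1 rose from 91.0 ± 3.10 to 205 ± 35.5 CPM (1.17, adjusted p = 0.000416). Between KOCKD + RNLS and KOCKD 5 were higher and 7 lower (list median 0.15), where 16.1% of all genes passed. Here Cdkn1a, a cell cycle inhibitor (-1.54, adjusted p = 0.00337), Txnip (-1.16, adjusted p = 0.00389) and Pdk4 (-1.93, adjusted p = 0.00477) were lower and Pik3r1 (0.71, adjusted p = 0.0049) was higher. In the averaged contrast, where 18.0% of all genes passed, 9 of the 38 were higher and 8 lower. The list thus did not move 1 way with the virus. In KOCKD against WTCKD 0 of the 38 passed, as of all genes.

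Of 15 inflammatory genes that glucocorticoids repress, 12 were tested, and all 12 had a negative value in WTCKD + RNLS against WTCKD (list median -0.82, against 52.2% positive over all genes). Only the endothelial adhesion gene Icam1 passed, from 22.1 ± 2.23 to 13.3 ± 1.24 CPM (-0.73, adjusted p = 0.0196). Against WTSHAM the same group had 6 of 12 lower and 0 higher (list median -1.39), where 7.69% of all genes passed. Among the 6 were Icam1 (-0.77, adjusted p = 0.0101) and the chemokines Ccl2 (-1.89, adjusted p = 0.0168), Ccl7 (-2.40, adjusted p = 0.0218) and Cxcl10 (-2.22, adjusted p = 0.0263). The chemokines were scarce, at 5.44 ± 1.86 CPM for Ccl2 in WTSHAM and 1.46 ± 0.144 CPM in WTCKD + RNLS. Macrophage markers moved with these genes, with a summed level of 297 to 358 CPM in WTSHAM and 180 to 201 CPM in WTCKD + RNLS over 6 of 6 genes, and the part of those cells was not tested. In KOCKD + RNLS against KOCKD 0 of 12 passed (list median -0.07), and the difference between genotypes called 0.

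Genes linked to KLF15 were tested for 11 of 11. Kcnip2, the potassium channel subunit that KLF15 is known to regulate, was higher in WTCKD than in WTSHAM (179 ± 25.6 to 253 ± 40.3 CPM, 0.50, adjusted p = 0.0336), where Klf15 was higher too. Only Kcnip2 passed there, and of the 11 genes 4 were above 0 and 7 below (list median -0.04). Prodh, a proline-degrading enzyme, was higher in WTCKD + RNLS than in WTCKD (0.79, adjusted p = 0.0488). In WTCKD + RNLS against WTSHAM, Kcnip2 (0.46, adjusted p = 0.0251) and the glucose transporter Slc2a4 (0.53, adjusted p = 0.00615) were higher. In knockout hearts 0 of 11 passed with the virus. Of the 8 other zinc and metallothionein genes 6 were tested, and the zinc importer Slc39a14 was lower in WTCKD than in WTSHAM (-0.47, adjusted p = 0.0271) and higher in WTCKD + RNLS than in WTCKD (0.47, adjusted p = 0.0189). Among 12 other Kruppel-like factors 10 were tested, with Klf11 lower in WTCKD + RNLS than in WTCKD (-0.57, adjusted p = 0.0492). Klf12 (1.001, adjusted p = 0.000829), Klf7 (0.56, adjusted p = 0.00591) and Klf6 (0.56, adjusted p = 0.0377) were higher in KOCKD + RNLS than in KOCKD. Of all genes, 4.47% passed in the wild-type virus contrast and 16.1% in the knockout one.

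Among relatives and substrates of SGK1, 6 of 9 were tested. The related kinase gene Sgk3 was lower in WTCKD + RNLS than in WTCKD (-0.44, adjusted p = 0.0289), and the sodium-proton exchanger Slc9a3, at 1.29 ± 0.298 CPM in KOCKD, was lower in KOCKD + RNLS (0.315 ± 0.131 CPM, -2.01, adjusted p = 0.00741). Of 8 relatives of TSC22 and FKBP51, 7 were tested, and 0 passed in WTCKD + RNLS against WTCKD. In knockout hearts with the virus Tsc22d2 was higher (0.39, adjusted p = 0.0161) and Fkbp8 lower (-0.26, adjusted p = 0.0173).

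Clock genes, which glucocorticoids also help to set, moved with the virus. Of 19 tested, 9 were higher and 3 lower in WTCKD + RNLS against WTCKD, where 4.47% of all genes passed. In KOCKD + RNLS against KOCKD 9 were higher and 2 lower, where 16.1% of all genes passed. Arntl, which encodes the clock activator BMAL1, was at 1.34 to 2.45 CPM in the 6 virus libraries and at 9.99 to 34.0 CPM in the 6 vector libraries, with log2 fold changes of -4.06 (adjusted p = 0.000329) and -3.66 (adjusted p = 0.000971). Hlf (1.82, adjusted p = 0.000962), Per3 (2.12, adjusted p = 0.00606) and Tef (1.43, adjusted p = 0.00675) were higher in the wild-type contrast, as they were in knockout hearts (1.60, 1.87 and 1.27). Per2, a clock repressor that was chosen after its values were seen, was at 34.5 to 62.8 CPM in the virus libraries and at 3.76 to 13.3 CPM in the vector libraries. Within WTSHAM it was at 33.9 CPM in replicate 1 and at 5.19 and 4.64 CPM in the others, and Arntl was at 7.67 CPM in replicate 1 and at 21.4 and 32.6 CPM in the others. WTSHAM replicate 1 was the highest of its group for all 8 responsive genes and also the one nearest to the virus libraries in these clock genes. The hour at which hearts were taken was not given in the sources used here, and its part in these results was not tested.

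**Figure D4:**
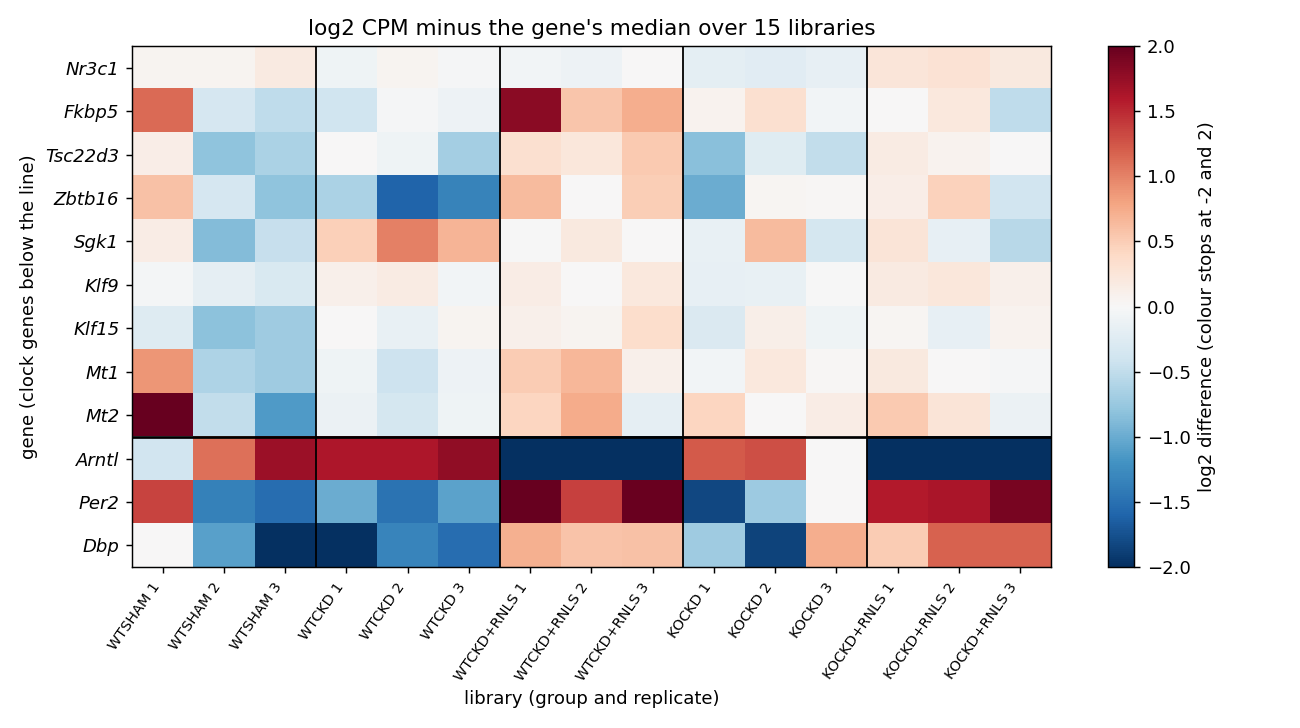
log2 CPM minus each gene's median over 15 libraries (colour, stopping at -2 and 2) for the 9 genes and, under the line, the clock genes Arntl, Per2 and Dbp, with libraries in columns by group. The 6 virus libraries are blue for Arntl and red for Per2, and WTSHAM replicate 1 differs from the other WTSHAM libraries in both parts of the plot.

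By rank among the 15 libraries over the 8 responsive genes, without Nr3c1, WTCKD + RNLS replicates 1 and 3 were each in the top 3 for 5 genes and WTSHAM replicate 1 for 4. WTSHAM replicates 2 and 3 were each in the bottom 3 for 6 of 8. In the deposited tables the column of WTSHAM replicate 1 carried the letter prefix of WTCKD + RNLS replicate 3 and the 3 KOCKD + RNLS columns, not that of the other WTSHAM columns. The 3 WTCKD columns carried the same letters in lower case. What the prefixes stand for is not stated, and since the WTCKD, KOCKD and KOCKD + RNLS columns each had a single prefix, whatever it marks and the group cannot be told apart. The immediate early gene Fos, which rises within minutes of stress or handling and was chosen after its values were seen, was at 57.2 CPM in WTSHAM replicate 1 and at 16.0 and 6.48 CPM in the other WTSHAM libraries. Of 15 immediate early genes 0 passed in WTCKD against WTSHAM, 1 was lower in WTCKD + RNLS against WTCKD (Myc, -1.28, adjusted p = 0.0247) and 0 passed in KOCKD + RNLS against KOCKD.

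The hearts expressed cardiomyocyte markers at a high level in every library, with Myh6 at 30100 to 46300 CPM. The summed level of 8 of 8 such markers was 87330 to 97790 CPM in WTSHAM, 89140 to 103200 in WTCKD, 108500 to 119100 in WTCKD + RNLS, 91440 to 98440 in KOCKD and 101900 to 104500 in KOCKD + RNLS, so the sum was higher with the virus in each genotype without overlap. The sum follows its most abundant genes, and in KOCKD + RNLS against KOCKD only 2 of the 8 markers had a value above 0, Myh6 (31375 ± 1117 to 45111 ± 1954 CPM, 0.52, adjusted p = 0.00217) and Ryr2 (0.34, adjusted p = 0.0182), with a list median of -0.08. In WTCKD + RNLS against WTCKD all 8 were above 0 (list median 0.17) and 0 passed. Endothelial markers (6 of 6) went the other way, with 1226 to 1415 CPM in WTCKD against 898 to 966 in WTCKD + RNLS and 1127 to 1316 in KOCKD against 1034 to 1056 in KOCKD + RNLS. With the virus, Sgk1 was at -0.67 in wild-type hearts (adjusted p = 0.166) and at -0.22 with overlapping groups in knockout hearts (adjusted p = 0.607). In WTCKD against WTSHAM it was at 1.07, where the endothelial list median was 0.12 and 0 of these markers passed. Fibroblast markers (8 of 8) were at 1077 to 1689 CPM in WTCKD and 878 to 1097 in WTCKD + RNLS. Atrial markers (6 of 6) reached 2508 CPM in WTCKD replicate 2 and 2677 CPM in KOCKD replicate 3 and were 87.6 to 1330 CPM elsewhere. Erythrocyte markers (5 of 6 in the table) were at 38.0 to 107 CPM in WTCKD and 218 to 527 in WTCKD + RNLS, without overlap, and at 51.1 to 375 in KOCKD and 73.6 to 293 in KOCKD + RNLS. They were highest in WTSHAM replicate 1, at 625 CPM. Adipocyte markers (6 of 6) were scarce, at 0.085 to 18.4 CPM in WTCKD and 0.33 to 2.76 in WTCKD + RNLS, with 5 of 5 tested genes below 0 (list median -3.32) and 0 passing. They were at 0 to 19.0 CPM in KOCKD and 0 to 9.51 in KOCKD + RNLS, again with 5 of 5 below 0 (list median -1.94) and 0 passing. Angptl4 and Pdk4, which are also active in fat tissue, fell in the same contrasts. In wild-type hearts Angptl4 went from 18.5 to 0.652 CPM and Pdk4 from 872 to 85.3 CPM. The part of fat tissue in these falls was not tested. No marker of these lists was at 0 in every library, and the part of any cell type in the levels of the 9 genes was not tested.

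Over the 15 libraries the 9 genes followed each other in part. Besides the metallothioneins, Tsc22d3 went with Klf9 (r = 0.779, and 0.677 for deviations from the group means) and Klf15 (0.669 and 0.677), and Fkbp5 with Mt1 (0.757 and 0.707). Klf9 and Klf15 had r = 0.655, and 0.277 within groups. The correlations of Nr3c1 with the 8 others lay between -0.263 and 0.328. All of these are across the same libraries of 5 groups and describe these libraries only.

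Outside the 9 genes, those whose log2 CPM went most closely with each over the 15 libraries were as follows. For Sgk1 they were the endothelial receptor gene S1pr1 (r = 0.927, and 0.879 within groups), Nfkbia (0.859) and Rhob (0.84). For Tsc22d3 they were Fam107a (0.935), the Wnt receptor gene Fzd4 (0.923) and the catenin gene Ctnna1 (0.882). For Nr3c1 they were Ids (0.938), the corepressor gene Sin3a (0.937) and Ttbk2 (0.916). Klf15 went most closely with Tnip3 (0.896), Baiap2l1 (0.887) and Sesn1 (0.88), and Klf9 with Parn (0.908), Rbm24 (0.841) and Xpc (0.833). Zbtb16 was nearest to Ier5 (0.873), Klhl17 (0.839) and N4bp2l2 (0.836), and Fkbp5 to Paf1 (0.857), Cdc37l1 (0.835) and Inafm2 (0.829). Mt1 was nearest to Cgrrf1 (0.92), Acot7 (0.914) and Gpank1 (0.886), and Mt2 to Pdlim5 (0.82), 2310002L09Rik (0.817) and Rnf114 (0.815). Each was picked as the highest over all tested genes above the level limit, so the values are high by choice.

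The spread between mice differed widely among the genes and set what could be called. The within-group SD on the log2 scale was 0.792 for Mt2, 0.541 for Fkbp5, 0.527 for Zbtb16, 0.437 for Mt1, 0.397 for Sgk1, 0.317 for Tsc22d3 and 0.191 for Klf15, against a median of 0.176 over all tested genes. For Mt2 it was larger than for 97.8% of tested genes, and 6.6% of its variance lay between groups. In KOCKD + RNLS against KOCKD the fitted 95% interval ran from -1.12 to 1.20 for Mt2 and from 0.29 to 0.58 for Nr3c1. Both the SD and the interval use the spread of all 5 groups, not only of the groups compared. Mt2 was at 53.7, 9.32 and 5.96 CPM in WTSHAM. It was at 13.04 to 17.6 CPM in KOCKD and 11.99 to 18.8 CPM in KOCKD + RNLS, so its width here owes much to WTSHAM.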

How the data were processed

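RNA-seq of 15 mouse hearts, 3 per group, was analysed, with each library's group taken from its label. According to the methods, stranded mRNA libraries (TruSeq) were sequenced on either of a pair of Illumina HiSeq models, and which library ran on which was not given in the sources used here. The authors trimmed reads with Trimmomatic, aligned them with HISAT2, and obtained gene counts from htseq-count, and the deposited counts are raw. They also deposited FPKM, computed with Cufflinks, which were used here only to compare levels between genes. The study's supplement names mm9 and the submitters' processing notes name GRCm39. Positions are those of Gencode vM1 on mm9, where none of the 9 genes shares exon bases with another. Tool versions, the gene annotation and whether counting used strand were not given in the sources used here. The labels give each library as a separate sample, and where nothing else says that replicates are separate animals, p-values measure the spread between these samples.

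The counts were tested with edgeR 4.0.16 in R 4.3.3 by the quasi-likelihood F test, with TMM scaling, filterByExpr (minimum count 10, minimum total 15), group as the only term, all 15 libraries in 1 fit, and Benjamini-Hochberg adjustment over 13021 genes. CPM use the TMM-scaled totals, and correlations use log2 CPM with a prior count of 2. The procedure was tested on simulated data. Alternatives were DESeq2 1.42.0, RLE size factors, no filter, a replicate block, fits of only the 6 libraries compared, the study's threshold, and each library left out in turn. Tables and figures were made with Python 3.11.15, pandas 2.3.3 and matplotlib 3.10.9. Promoter windows came from RefSeq (GRCm38.p6).

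The 9 members, the gene lists and the tests were chosen with earlier results of these data known. All 9 genes were tested in each comparison. Values are given for all 9 in WTCKD against WTSHAM and in the virus contrast of each genotype, and for some of them elsewhere. From each list, at most 4 genes that passed were named, by adjusted p. For each member, the 3 genes with the highest Pearson correlation among tested genes with an average log2 CPM over 1 were named. One result for a single gene of the clock list is not reported here.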

Additional observations from a re-analysis of the deposited data

How the results depend on the processing

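The number of the 9 genes that passed did not change by over 1.5 times under RLE size factors in any contrast. For the counts of genes called, the share of all genes that passed in the same setting is in brackets. WTCKD against WTSHAM gave 1 with the replicate block (1.94%) and 0 with only the 6 libraries compared (0.777%). With 1 library left out it gave 0 to 2 (1.03% to 2.88%). WTCKD + RNLS against WTCKD gave 2 without a filter on low counts (3.71%) and 4 with only the 6 libraries (3.03%). It gave 5 by the study's threshold (14.4%) and 0 to 2 with 1 library left out (1.59% to 5.77%). KOCKD + RNLS against KOCKD gave 1 with the replicate block (14.7%) and 1 to 2 with 1 library left out (6.53% to 11.2%). WTCKD + RNLS against WTSHAM gave 1 with only the 6 libraries (2.33%) and 1 to 6 with 1 library left out (3.25% to 11.3%). KOCKD against WTCKD gave 2 by the study's threshold (5.62%). The difference between genotypes gave 1 in DESeq2 (5.21%) and 3 by the study's threshold (15.2%). The test over 5 groups gave 2 to 9 with 1 library left out (13.2% to 28.2%), and the averaged virus contrast 3 to 4 (12.6% to 25.5%). With fewer libraries the spread is estimated from fewer mice. For other lost calls the cause was not tested.

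Among values of single genes, 4 changed sign in fits of all libraries. Mt1 in KOCKD + RNLS against KOCKD was -0.0022 with RLE factors, -0.0196 with the replicate block and -0.00228 in DESeq2, and the difference between genotypes for Tsc22d3 was 0.00297 without a filter. Leaving out 1 library turned 13 values, given as the lowest and highest. For WTCKD against WTSHAM these were -0.741 to 0.25 for Fkbp5, -0.0195 to 0.489 for Tsc22d3, -0.513 to 0.47 for Mt1 and -1.44 to 0.60 for Mt2. For WTCKD + RNLS against WTSHAM Mt2 ran from -0.88 to 1.15, and for all of these except Tsc22d3 the change of sign came without WTSHAM replicate 1. For WTCKD + RNLS against WTCKD they were -0.0733 to 0.00598 for Nr3c1 and -0.0114 to 0.107 for Klf9. For KOCKD + RNLS against KOCKD they were -0.459 to 0.14 for Sgk1, -0.0382 to 0.172 for Klf15, -0.0752 to 0.0846 for Mt1 and -0.12 to 0.194 for Mt2. Klf15 in KOCKD against WTCKD ran from -0.167 to 0.0435, and the difference between genotypes for Tsc22d3 from -0.14 to 0.188.

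The replicate numbers did not pair the mice. Deviations of same-numbered libraries had a median correlation of -0.0366 (range -0.36 to 0.334, over 0.1 in 5 of 30 pairs), and 4 of 15 libraries were closest to their own number. With the number as a block, the calls for Klf15 in WTCKD against WTSHAM (0.55, adjusted p = 0.062) and Klf9 in KOCKD + RNLS against KOCKD (0.27, adjusted p = 0.0607) were lost, and no other call of a single gene in a contrast changed. RLE factors moved the median of all genes by at most 0.0102. With 3 mice per group the SE of the WTCKD against WTSHAM contrast was 0.38 for Fkbp5 and 0.546 for Mt2, against 0.0686 for Nr3c1, which limits what could be called for the more variable genes.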
